A study of Danio rerio with 17 samples.

Results

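The genes described here belong to 2 lists of lipid synthesis, 21 genes of sterol synthesis and uptake and 17 genes of fatty acid synthesis and lipogenesis. A listed gene was kept when its symbol stood in the count table of the zebrafish liver samples, whatever its level. This left 25 of the 8513 entries, of which 15 are sterol genes and 10 are fatty acid genes. The remaining 13 listed genes were not analysed here: mvk, pmvk, fdft1, msmo1, tm7sf2 and insig1 of the sterol list, and fasn, acaca, acly, scdb, elovl6, gpam and lpin1 of the fatty acid list. Fatty acid synthase (fasn) and acetyl-CoA carboxylase (acaca) are among them, so the core of fatty acid synthesis from acetyl-CoA is not described here. All 25 genes passed the filter on low counts that was applied before testing.

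The samples were livers of adult zebrafish carrying Tg(fabp10a:NLS-mCherry), in which a hepatocyte promoter drives a nuclear red fluorescent protein in every group, the controls included. The study's fish were 4 to 9 months old. In cryoinjury a probe cooled in liquid nitrogen was held on the ventral liver lobe, and in the sham operation the probe was at room temperature. Livers were taken 1, 3 or 7 days after cryoinjury (dpci, days post-cryoinjury), with 4 samples at each time and 5 sham samples, and the injured border was collected. The study's sources differ on the replicates, described in the methods as tubes of 3 pooled livers and elsewhere as technical replicates. The labels give neither the lobe of each sample nor whether the 17 samples are independent, so the p-values measure the spread between these samples, which may be technical.

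Values are CPM, reads of a gene scaled to a library of fixed size, after TMM scaling, a correction that sets most genes equal between samples. Genes were called with edgeR's quasi-likelihood test in 1 fit of 17 samples at a Benjamini-Hochberg adjusted p of 0.05 or less over 8412 entries. The depth was 4743533 to 6800961 counts per sample, so that 0 reads allow a level of up to 0.441 to 0.632 CPM by column total, which covers counting error only. The mitochondrial share of all counts was 43.8% to 49.5% in sham samples, 30.3% to 40.5% at 1 dpci, 30.6% to 38.4% at 3 dpci and 30.9% to 49.4% at 7 dpci. When the column totals alone were used for scaling, the typical gene shifted: its median log2 change against sham became 0.84 at 1 dpci, 0.42 at 3 dpci and 0.36 at 7 dpci. In the comparisons with 1 dpci it became −0.40 (3 dpci) and −0.48 (7 dpci). It was between −0.02 and 0.08 with TMM.

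A few libraries stood apart before any comparison. Sham replicate 5 is library 1, whereas sham replicates 1 to 4 are libraries 61 to 64 and all injured samples carry numbers from 9 to 33. At 1 dpci, replicates 1 and 2 differed by a chi-square of 10.1 per degree of freedom and replicates 3 and 4 by 21, against 26.6 to 153 for all other pairs within a group. All pairs thus differed by more than counting noise, which does not show whether they came from separate livers. The 4 were counted as labelled, and results with these pairs summed are given beside the calls. The hepatocyte markers of the table, 17 of 18 listed, were detected in every group. Pancreatic enzyme transcripts were also present in all samples, with the summed level of 14 markers at 4796 to 37433 CPM in sham samples, 480.2 to 5663 CPM at 1 dpci, 1723 to 7230 CPM at 3 dpci and 2641 to 39461 CPM at 7 dpci.

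Cholesterol is built from acetyl-CoA through mevalonate and squalene, and the liver is a main site of this synthesis. Its enzymes are known to be controlled together by the transcription factor SREBP-2, the product of srebf2, which is released from the endoplasmic reticulum when membrane sterols are low and also drives the LDL receptor. Fatty acid synthesis and the assembly of triglycerides are driven by SREBP-1, the product of srebf1, and by ChREBP, the product of mlxipl, and are known to follow insulin and dietary carbohydrate. Both pathways fall during fasting in mammalian liver.

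At 1 dpci against sham, 3 of the 15 sterol genes fell and none rose. They were ldlra, nsdhl and ebp. Over all genes tested, 14.5% fell and 9.43% rose. The median log2 fold change of the sterol genes was −1.72, against −0.02 for all genes, and 14 of 15 values were negative, as were 50.9% of all genes. With 1 sample left out, the median ran from −2.18 (without 1 dpci replicate 3) to −0.84 (without sham replicate 3), and against sham replicate 5 alone it was 0.58. With column totals 1 of 15 sterol genes was called, ldlra, and the median was −0.77, while over all genes 5.62% fell and 37.5% rose.

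The LDL receptor gene ldlra, whose product takes up cholesterol-carrying lipoproteins, had the smallest p-value of the list. It had 4.70, 2.46, 5.86 and 5.78 CPM at 1 dpci, against 20.7, 29.8, 70.2, 43.3 and 40.8 CPM in sham samples. All 4 injured samples lay below all 5 sham samples, sham replicate 5 included. The log2 fold change was −3.11 ± 0.52 (SE, adjusted p = 0.000699, edgeR), and the groups stayed apart with column totals. Against sham replicate 5 alone the log2 difference was −3.12.

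The enzymes nsdhl and ebp act late in the pathway, where nsdhl takes part in removing methyl groups from the sterol ring and ebp moves a double bond within it. For nsdhl the values were 2.43, 2.64, 1.95 and 2.01 CPM at 1 dpci, against 8.85, 5.68, 14.6, 5.93 and 2.43 CPM in sham samples (log2 fold change −1.72 ± 0.55, adjusted p = 0.0326, edgeR). For ebp they were 1.82, 1.41, 1.30 and 2.26 CPM at 1 dpci, against 51.1, 6.37, 78.1, 2.05 and 0 CPM in sham samples (log2 fold change −4.00 ± 1.36, adjusted p = 0.0424, edgeR). Both groups overlapped, because sham replicate 5, and for ebp also sham replicate 4, lay among or below the injured samples. Neither call held when sham replicate 1, sham replicate 3 or any one of the 1 dpci samples was left out, with adjusted p-values between 0.0534 and 0.0963 for nsdhl and between 0.0679 and 0.104 for ebp, nor with column totals (adjusted p = 0.276 and 0.0728).

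Another pair of late enzymes missed the threshold. The desaturase gene sc5d had 9.86, 13.2, 15.6 and 14.4 CPM at 1 dpci, against 40.8, 29.1, 247, 36.5 and 18.7 CPM in sham samples, with no overlap and a log2 difference of −2.48 ± 0.88 (adjusted p = 0.0502, edgeR). It was called by DESeq2 (adjusted p = 0.00781). With column totals its log2 difference was −1.38 (adjusted p = 0.196) and the groups overlapped, and without sham replicate 3 it was −1.19 (adjusted p = 0.243). The adjusted p was 0.0914 to 0.123 without any one of the 1 dpci samples and 0.0353 without sham replicate 5, the lowest of the fits with 1 sample left out. The reductase gene hsd17b7 had 1.36, 1.93, 1.84 and 1.00 CPM at 1 dpci, against 13.8, 5.68, 57.7, 0.228 and 1.01 CPM in sham samples, and these ranges overlapped (adjusted p = 0.0826). The other 8 enzymes that were lower, acat2, hmgcs1, mvda, idi1, fdps, sqlea, lss and dhcr7, had log2 differences between −2.63 (lss) and −0.66 (sqlea), none called. Lower groups without overlap at 1 dpci numbered 2 of 15 sterol genes, ldlra and sc5d, against 12.2% of all genes.

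The earlier steps did not pass the test at 1 dpci. The gene for HMG-CoA reductase, hmgcra, the rate-setting enzyme of the pathway, was the only sterol gene with a positive estimate. Its values were 5.0, 7.56, 11.7 and 7.03 CPM at 1 dpci, against 0, 0.227, 7.00, 0 and 2.43 CPM in sham samples (log2 difference 2.09 ± 1.29, adjusted p = 0.250, edgeR). Sham replicate 3 lay within the injured range, and the other sham samples below it. A second HMG-CoA reductase gene outside the list, hmgcrb, had 16.2, 16.5, 12.5 and 12.9 CPM at 1 dpci. In sham samples it had 14.4, 12.5, 15.4, 6.84 and 7.10 CPM (log2 difference 0.37 ± 0.305, adjusted p = 0.397, edgeR). The regulator srebf2 had 23.1, 26.9, 18.9 and 24.6 CPM at 1 dpci, against 26.6, 20.5, 48.7, 19.8 and 16.8 CPM in sham samples, a log2 difference of −0.18 with a 95% interval from −1.01 to 0.65. With column totals the estimates of hmgcs1, mvda, sqlea and srebf2 changed sign, and no gene whose sign changed had been called. With that scaling the 1 dpci samples of hmgcra and srebf2 lay above all sham samples, without a call. The share of all genes with that order was not computed. Under column totals 37.5% of all genes were called higher, so the order is a description only.

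**Figure D1:**
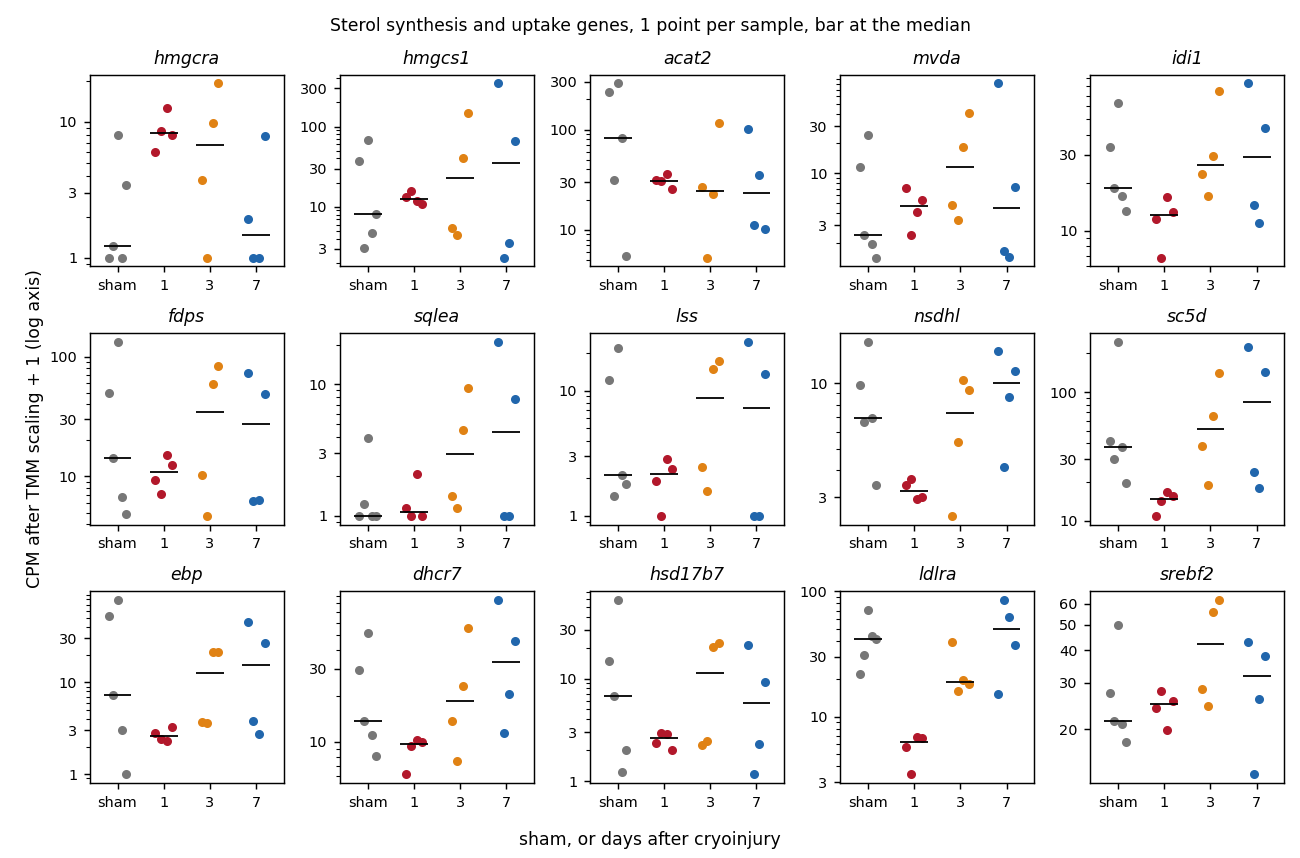
CPM after TMM scaling plus 1, on a log axis, of the 15 sterol genes in sham samples and at 1, 3 and 7 dpci. Each point is 1 sample, in replicate order from left to right, and the bar is the group median. At 1 dpci the samples lie close together, while the sham, 3 dpci and 7 dpci samples of most enzymes separate into high and low values.

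At 3 dpci against sham none of the 15 sterol genes was called. At an unadjusted p of 0.05 none passed either, where 5.71% of all genes were higher and 6.13% lower, and DESeq2 called 0 of them. Over all genes tested, 0.0119% were called. The median log2 difference was 0.15, with 8 values above and 7 below 0, and 51% of all genes were below 0. With column totals the median was 0.85, and fdps, nsdhl, sc5d and hsd17b7 turned positive. With 1 sample left out it ran from −0.54 to 1.07. The group held high and low samples side by side. The gene hmgcs1, whose product makes HMG-CoA, had 4.40, 3.39, 39.5 and 147 CPM at 3 dpci, against 36.7, 2.05, 66.2, 3.65 and 7.10 CPM in sham samples. Replicates 3 and 4 were high and replicates 1 and 2 were low. The regulator srebf2 showed the same order, with 27.5, 23.4, 54.7 and 61.2 CPM at 3 dpci (log2 difference 0.66 ± 0.39 against sham, adjusted p = 0.529, edgeR).

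At 7 dpci against sham none of the 15 sterol genes was called, and 0% of all genes were. DESeq2 called 0 sterol genes, and 1 passed an unadjusted p of 0.05, the squalene epoxidase gene sqlea, where 4.77% of all genes were higher and 4.32% lower at that threshold. It had 20.1, 0, 0 and 6.74 CPM at 7 dpci, against 0, 0.227, 2.91, 0 and 0 CPM in sham samples (log2 difference 3.57 ± 1.58, unadjusted p = 0.0377, adjusted p = 0.530, edgeR). Replicates 1 and 4 carried all the sqlea reads of the 7 dpci group. The same pair was highest for hmgcs1, with 346, 1.31, 2.56 and 65.1 CPM, and for the decarboxylase gene mvda, with 80.1, 0.656, 0.427 and 6.32 CPM at 7 dpci. The thiolase gene acat2, which joins acetyl-CoA units at the start of the pathway, did not follow, with 101, 10.2, 34.2 and 9.12 CPM at 7 dpci, against 238, 30.2, 289, 81.2 and 4.46 CPM in sham samples (log2 difference −1.73 ± 1.01, adjusted p = 0.631).

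Against 1 dpci the later samples were tested too. These comparisons share the 1 dpci samples with the comparison above. At 3 dpci 1 of 15 sterol genes rose, ldlra, whereas 7.66% of all genes rose and 3.91% fell. It had 38.6, 15.0, 18.4 and 17.3 CPM at 3 dpci, against 4.70, 2.46, 5.86 and 5.78 CPM at 1 dpci (log2 fold change 2.23 ± 0.52, adjusted p = 0.0114, edgeR), with no overlap. The call was lost when the 1 dpci samples were summed in their 2 closely alike pairs (adjusted p = 0.115).

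At 7 dpci 4 of 15 sterol genes rose against 1 dpci, nsdhl, sc5d, dhcr7 and ldlra, while 14.6% of all genes rose and 8.45% fell. The log2 fold change of ldlra was 3.37 ± 0.54 (adjusted p = 0.000756, edgeR), from 14.0, 84.5, 60.9 and 36.3 CPM at 7 dpci, against 2.46 to 5.86 CPM at 1 dpci. For dhcr7, a reductase at the end of the pathway, the values were 83.5, 10.5, 19.7 and 44.8 CPM at 7 dpci, against 5.16, 8.44, 9.22 and 9.04 CPM at 1 dpci (log2 fold change 2.31 ± 0.73, adjusted p = 0.0325). All 7 dpci samples lay above all 1 dpci samples for these 4 genes, as they did for 13.9% of all genes. With column totals the groups overlapped for nsdhl, sc5d and dhcr7 and stayed apart for ldlra. Only ldlra kept its call with column totals, or when 1 dpci replicate 1, 3 or 4 or 7 dpci replicate 4 was left out, whereas without 1 dpci replicate 2 or 7 dpci replicate 1 both ldlra and nsdhl kept it.

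At 1 dpci against sham, 7 of the 10 fatty acid genes fell and none rose. Those that fell were srebf1, scd, elovl2, fads2, thrsp, gck and dgat2. The corresponding share of all genes was 14.5% lower and 9.43% higher. The median log2 fold change was −2.97, against −0.02 for all genes, and −2.06 with column totals, where 6 of the 10 were called. With 1 sample left out it ran from −3.20 to −1.81 (without sham replicate 1), and against sham replicate 5 alone it was −0.33. None of the members that fell encodes a fatty acid synthase: fads2 and elovl2 desaturate and extend polyunsaturated fatty acids, scd makes monounsaturated ones, gck traps glucose in the hepatocyte, dgat2 catalyses the last step to triglyceride, srebf1 is a regulator, and thrsp encodes a small protein tied to lipogenesis in rodents.

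The largest estimate was that of thrsp. It had 0.910, 1.58, 0.759 and 0.377 CPM at 1 dpci, against 752, 274, 3048, 191 and 1.01 CPM in sham samples. Each injured sample held 3 to 9 reads, and sham replicate 5 held 5 reads and lay within the injured range. The log2 fold change was −9.88 ± 2.04 (adjusted p = 0.00293, edgeR), and it kept its call when any one sample was left out.

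The pair of genes for long-chain polyunsaturated fatty acids moved alike. For elovl2 the values were 12.6, 9.67, 10.5 and 9.54 CPM at 1 dpci, against 305, 79.3, 605, 169 and 11.2 CPM in sham samples (log2 fold change −4.46 ± 0.91, adjusted p = 0.00287, edgeR). For fads2 they were 144, 82.1, 34.7 and 35.9 CPM at 1 dpci, against 699, 711, 1858, 799 and 113 CPM in sham samples (log2 fold change −3.49 ± 0.85, adjusted p = 0.00838). In both genes sham replicate 5 was the only sham sample inside the injured range. The related elongase gene elovl5 did not pass, with 28.4 to 55.0 CPM at 1 dpci and 8.18 to 54.3 CPM in sham samples.

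The triglyceride gene dgat2 separated the groups fully. It had 109, 144, 110.3 and 145 CPM at 1 dpci, against 1549, 461, 706, 383 and 344 CPM in sham samples (log2 fold change −2.44 ± 0.46, adjusted p = 0.00164, edgeR). The groups stayed apart with column totals. Against sham replicate 5 alone the log2 difference was −1.45.

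The regulator srebf1 had 12.9, 13.4, 21.4 and 21.1 CPM at 1 dpci, against 97.9, 33.4, 40.2, 22.8 and 30.6 CPM in sham samples, with no overlap (log2 fold change −1.39 ± 0.42, adjusted p = 0.0255, edgeR). It lost its call without sham replicate 1 (adjusted p = 0.0713), without 1 dpci replicate 1 or 2 (adjusted p = 0.0802 and 0.0759) and with column totals (adjusted p = 0.368). The other regulator, mlxipl, had 2.27, 1.76, 1.63 and 2.01 CPM at 1 dpci, against 2.58, 2.73, 9.33, 7.75 and 6.08 CPM in sham samples, without overlap (log2 difference −1.55 ± 0.57, adjusted p = 0.0580). Lower, non-overlapping groups thus numbered 3 of 10, srebf1, dgat2 and mlxipl, where 12.2% of all genes had them. With column totals the groups of srebf1 and mlxipl overlapped.

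The calls of scd and gck rested on few samples. The desaturase gene scd had 7.43, 0.527, 2.60 and 0.879 CPM at 1 dpci, against 593, 10.9, 354, 29 and 0.608 CPM in sham samples (log2 fold change −6.10 ± 1.87, adjusted p = 0.0269, edgeR), and lost its call without 1 dpci replicate 2, 3 or 4 (adjusted p = 0.0669 to 0.0757). The glucokinase gene gck had 4.85, 1.23, 9.65 and 8.79 CPM at 1 dpci, against 1153, 19.6, 19.8, 6.16 and 1.62 CPM in sham samples (log2 fold change −5.28 ± 1.66, adjusted p = 0.0303). A single sample, sham replicate 1, held nearly all gck reads of the sham group. Without it the log2 fold change of gck was −0.92 with an adjusted p of 0.464, and the call was also lost without any one of the 1 dpci samples (adjusted p = 0.0608 to 0.0834) and with only the compared groups in the fit (adjusted p = 0.0511). The gene for malic enzyme, me1, which supplies NADPH, was not called, with 6.22, 2.99, 19.7 and 22.6 CPM at 1 dpci, against 17, 8.41, 25.7, 35.6 and 9.93 CPM in sham samples.

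**Figure D2:**
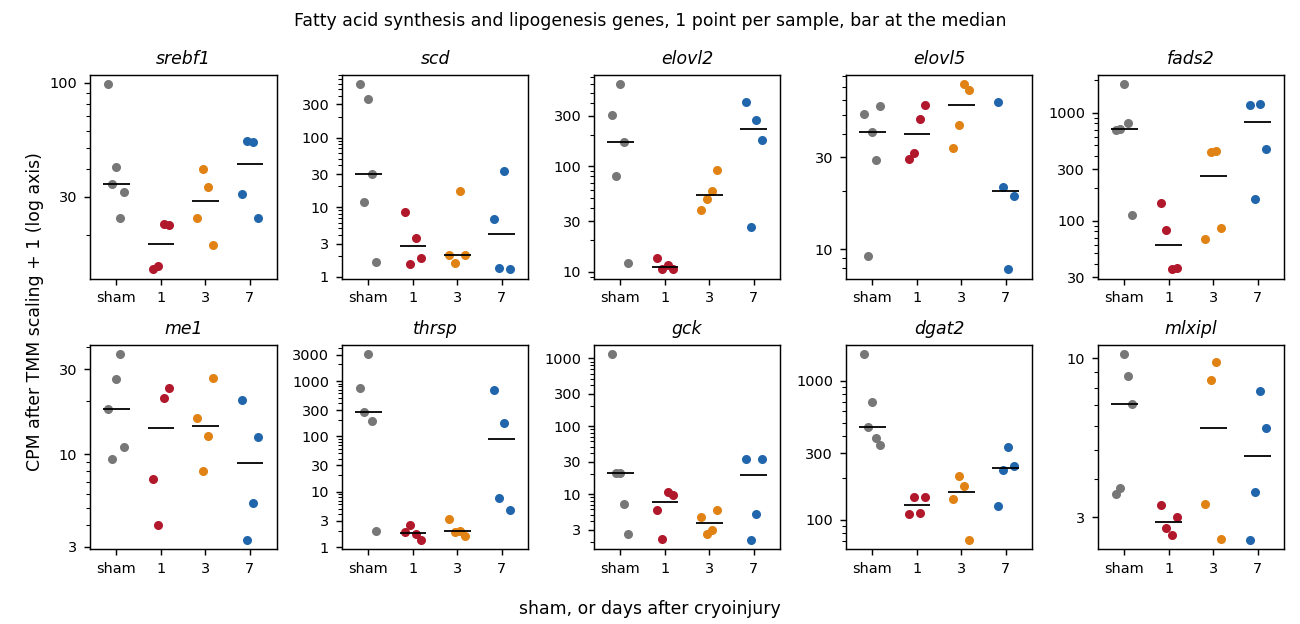
CPM after TMM scaling plus 1, on a log axis, of the 10 fatty acid genes in sham samples and at 1, 3 and 7 dpci. Each point is 1 sample, in replicate order, and the bar is the group median. The lowest sham point of scd, elovl2, fads2, thrsp, gck and dgat2 is replicate 5, which for dgat2 (344 CPM) still lies above the highest 1 dpci sample (145 CPM).

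With sham replicate 5 as the only sham sample, a comparison added after the data were seen, 0 of 15 sterol genes and 0 of 10 fatty acid genes were called at 1 dpci. This arm of 1 sample takes its spread from the other groups, and the share of all genes that fell was 0.917% in it, in place of 14.5%, so it is no test of the lipid genes. All 4 injured samples lay below this sample for sc5d, ldlra, srebf1, dgat2 and mlxipl. They all lay above it for hmgcra, hmgcs1, acat2, mvda, fdps, ebp and srebf2. The share of all genes with either order was not computed, so these orders are a description. With the 1 dpci samples summed in 2 pairs, 1 sterol gene (ldlra) and 1 fatty acid gene (dgat2) were called, and 3.92% of all genes fell.

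Markers of cell types were counted in the same comparison, where 14.5% of all genes fell and 9.43% rose. Hepatocyte markers summed to 70010 to 84847 CPM at 1 dpci, against 103675 to 203058 CPM in sham samples, and 9 of 17 fell while 2 rose. Exocrine pancreas markers fell for 12 of 14, with none at 0 in every sample of either group. Of 7 macrophage and neutrophil markers 2 fell and 1 rose, of 9 endothelial and stellate markers 2 fell, of 5 biliary markers 1 fell, of 2 adipocyte markers 1 fell, and of 2 vitellogenin genes none was called. Lists this short do not show whether a cell type moved. The vitellogenin genes, made by the liver of egg-laying females, summed to 5.98 to 17 CPM at 1 dpci, against 0.228 to 49.5 CPM in sham samples, the highest being sham replicate 5. At 3 and 7 dpci against sham no marker of any of these lists was called. The part of these cells in the values of the lipid genes was not tested. In bulk samples fewer cells of a type and less RNA per cell cannot be told apart.

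At 3 dpci against sham none of the 10 fatty acid genes was called, and 0.0119% of all genes were. At an unadjusted p of 0.05 6 genes were lower, scd, elovl2, fads2, thrsp, gck and dgat2, as were 6.13% of all genes, while DESeq2 called 3 of them lower, scd, thrsp and dgat2, and 1.21% of all genes. The fit was close to the threshold for thrsp, with 2.31, 0.883, 0.988 and 0.592 CPM at 3 dpci, against 1.01 to 3048 CPM in sham samples (log2 difference −9.51 ± 2.01, adjusted p = 0.0902, edgeR). It was also close for dgat2, with 140.0, 205, 175 and 70.8 CPM at 3 dpci, against 344 to 1549 CPM in sham samples (log2 difference −2.22 ± 0.46, adjusted p = 0.0862), without overlap. Both were called when sham replicate 5 was left out (adjusted p = 0.0181 and 0.0280).

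The other fatty acid genes at 3 dpci had log2 differences against sham between −6.31 (gck) and 0.57 (elovl5). That of gck ran from −6.66 to −1.96 with 1 sample left out. Sham replicate 1 held 1153 CPM of gck, against 1.62 to 19.8 CPM in the other sham samples. For elovl2 the values were 37.1, 47.8, 56.7 and 90.9 CPM at 3 dpci, against 11.2 to 605 CPM in sham samples. For fads2 they were 66.6, 433, 442 and 85.0 CPM, and for scd 1.05, 0.589, 16.1 and 1.07 CPM at 3 dpci. Thus scd stayed at 1.07 CPM or less in 3 of 4 samples, and gck at 4.85 CPM or less in all 4. The regulator srebf1 had 22.8, 39.3, 32.1 and 17 CPM at 3 dpci (log2 difference −0.69 ± 0.41 against sham, adjusted p = 0.529).

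At 7 dpci against sham none of the 10 was called, 0% of all genes were, DESeq2 called 0 of them, and 3 passed an unadjusted p of 0.05, scd, gck and dgat2, all lower, as were 4.32% of all genes. All 10 estimates were negative, as were 46.5% of all genes, and their median was −0.78, and with column totals −0.40 with 3 positive estimates. For dgat2 the values were 125, 227, 333 and 242 CPM at 7 dpci, against 344 to 1549 CPM in sham samples (log2 difference −1.57 ± 0.45, unadjusted p = 0.00264, adjusted p = 0.516, edgeR). It was the only member with no overlap with sham at 1, 3 and 7 dpci alike, comparisons that share the sham samples. At each time singly, lower groups without overlap made up 12.2%, 1.88% and 0.654% of all genes. The share of all genes with no overlap at all 3 times was not computed. The difference of gck rested on sham replicate 1 and changed sign without it (log2 difference 0.57).

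Against 1 dpci, 0 of 10 fatty acid genes were called at 3 dpci, with 3 higher at an unadjusted p of 0.05 (17.2% of all genes) and 1 by DESeq2, elovl2 (log2 difference 2.46 ± 0.85, adjusted p = 0.0695 with edgeR). At 7 dpci elovl2, fads2 and thrsp rose, 3 of 10, where 14.6% of all genes rose. For thrsp the values were 687, 6.89, 172 and 3.79 CPM at 7 dpci, against 0.377 to 1.58 CPM at 1 dpci (log2 fold change 7.91 ± 1.91, adjusted p = 0.00842, edgeR). For elovl2 they were 402, 25.6, 276 and 176 CPM at 7 dpci, against 9.54 to 12.6 CPM at 1 dpci (log2 fold change 4.38 ± 0.93, adjusted p = 0.00414), and for fads2 1195, 160.3, 1196 and 461 CPM at 7 dpci, against 34.7 to 144 CPM at 1 dpci (log2 fold change 3.34 ± 0.86, adjusted p = 0.0122). All 7 dpci samples lay above all 1 dpci samples for these 3 genes, as they did for 13.9% of all genes. The same held for srebf1, which was not called (adjusted p = 0.0554, edgeR). With column totals the groups overlapped for fads2 and srebf1 and stayed apart for elovl2 and thrsp. The calls of elovl2, fads2 and thrsp held without any one sample and with column totals, but not when the 1 dpci samples were summed in pairs. By contrast, scd had 5.80, 0.328, 31.6 and 0.281 CPM at 7 dpci, which overlapped the 1 dpci range (log2 difference 1.71 ± 1.62, adjusted p = 0.465).

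The study's methods give other thresholds, a log2 change of at least 1.5 and a P of 0.05, without naming an adjustment. The study's figure legends give a fold change of 1.5. Here the log2 change was used, and P was taken as unadjusted. By these thresholds, 5 sterol genes and 7 fatty acid genes were lower at 1 dpci against sham (11.9% of all genes). The 7 were not the same genes as those called above, as mlxipl (log2 change −1.55) was in and srebf1 (−1.39) was out. At 3 dpci 6 fatty acid genes and no sterol gene were lower (1.8% of all genes). At 7 dpci 1 sterol gene was higher (1.08% of all genes) and 3 fatty acid genes were lower (0.88%). Against 1 dpci, 4 sterol and 2 fatty acid genes were higher at 3 dpci (9.99% of all genes), and 8 sterol and 3 fatty acid genes at 7 dpci (12.6%).

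**Figure D3:**
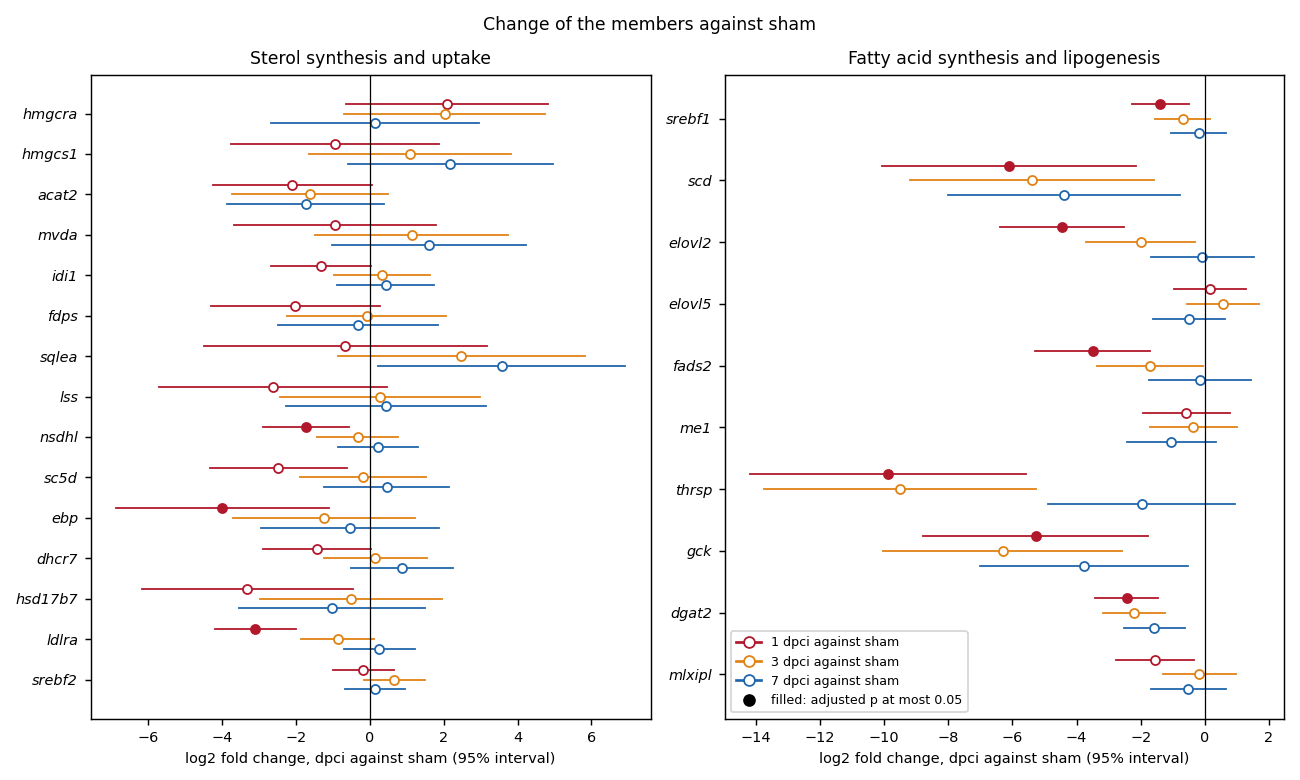
Log2 fold change of each gene at 1, 3 and 7 dpci against sham, with the 95% interval of the edgeR fit, for the 15 sterol genes on the left and the 10 fatty acid genes on the right. Filled points were called at an adjusted p of 0.05 or less, 3 sterol and 7 fatty acid genes, all at 1 dpci and all lower.

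The sham samples differed widely in both lists. As the SD of log2 CPM (prior count 2) over the 5 sham samples, the median was 2.01 for the 15 sterol genes and 1.29 for the 10 fatty acid genes, against 0.61 for all genes. Every one of the 13 sterol enzymes, the sterol list without ldlra and srebf2, and every one of the 10 fatty acid genes lay above that median of all genes. The largest were thrsp with 4.22, scd with 3.80, gck with 3.46, ebp with 3.25 and hsd17b7 with 2.66, and 0.0238% of all genes had a sham SD as large as that of thrsp. The smallest were srebf2 with 0.59, below the median of all genes, and ldlra with 0.65.

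In absolute terms, thrsp ran from 5 reads (1.01 CPM) in sham replicate 5 to 10458 reads (3048 CPM) in sham replicate 3. The values of hsd17b7 ran from 1 to 198 reads, of scd from 3 to 3217 reads and of gck from 8 to 6250 reads. By contrast, the ratio of the highest to the lowest sham sample was 4.5 for dgat2, 3.40 for ldlra and 2.89 for srebf2.

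The spread of the sterol genes was narrow at 1 dpci and wide in the other groups, a difference given as a description with no test. The median SD of the 13 sterol enzymes was 2.07 in sham samples, 0.38 at 1 dpci, 1.91 at 3 dpci and 2.11 at 7 dpci. For the 10 fatty acid genes it was 1.29, 0.53, 0.66 and 1.34 in the same order of groups. For all genes it was 0.61, 0.39, 0.48 and 0.63. At 3 dpci the sterol enzymes thus varied between samples with a median SD well above that of the fatty acid genes, while at 1 dpci they varied no more than the median gene. The 1 dpci group holds the 2 pairs of closely alike samples.

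**Figure D4:**
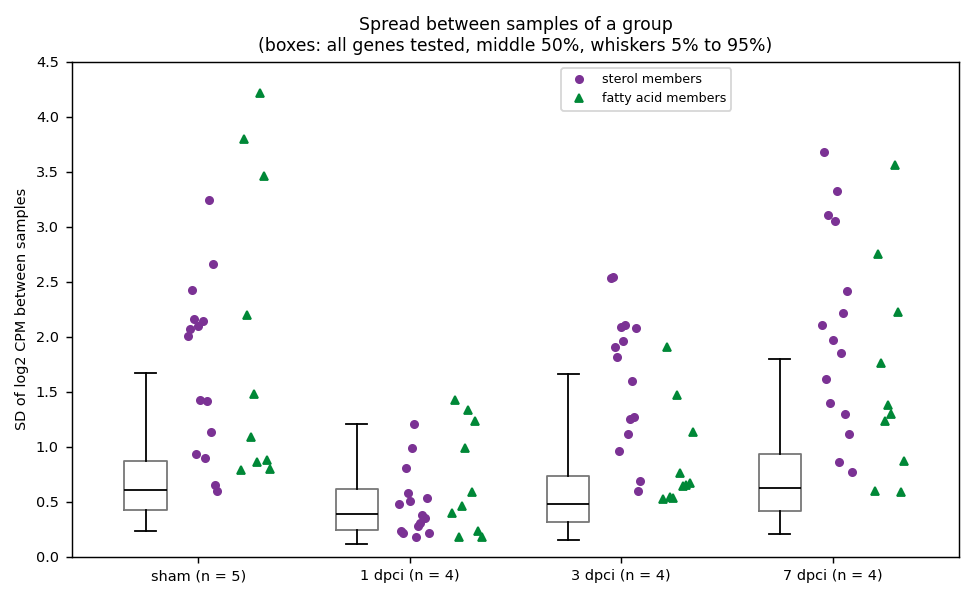
SD of log2 CPM between the samples of each group, for all 8412 genes tested (box with the middle 50% and whiskers from 5% to 95%) and for the 15 sterol and 10 fatty acid genes as points. The points are spread up to 4.22 in sham samples and lie between 0.18 and 1.42 at 1 dpci.

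The sterol enzymes shared their order of samples. Within sham, replicate 3 was the highest for 13 of 13 enzymes, and replicates 1 and 3 were the 2 highest samples for 11 of 13. At 3 dpci replicates 3 and 4 were the 2 highest for 12 of 13, and at 7 dpci replicates 1 and 4 for 12 of 13. These pairs were picked after the values were seen. The same pairs were the 2 highest for 14.7%, 18.9% and 14.6% of all genes, and with column totals for 11, 13 and 12 of the 13 enzymes and 9.62%, 25.3% and 30.3% of all genes. At 3 dpci the exception was acat2, in which replicate 1 (25.8 CPM) lay above replicate 3 (21.6 CPM).

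The regulator srebf2 followed this order in all 3 groups, over a narrower range. It had 26.6 and 48.7 CPM in sham replicates 1 and 3, against 16.8 to 20.5 CPM in the other 3 sham samples, and 41.8 and 36.9 CPM in 7 dpci replicates 1 and 4, against 12.5 and 25 CPM in replicates 2 and 3. The receptor gene ldlra did not. At 7 dpci it was lowest in replicate 1 (14.0 CPM), where 12 of 13 enzymes were highest, and highest in replicate 2 (84.5 CPM).

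The fatty acid genes followed these orders less uniformly, a comparison with no test. Sham replicates 1 and 3 were the 2 highest for 6 of 10, srebf1, scd, elovl2, thrsp, gck and dgat2. At 3 dpci replicates 3 and 4 were the 2 highest for 3 of 10, and at 7 dpci replicates 1 and 4 for 2 of 10. At 7 dpci replicate 3 was high for thrsp (172 CPM), elovl2 (276 CPM), fads2 (1196 CPM) and scd (31.6 CPM), in a sample with 0 reads of hmgcra and sqlea and 2.56 CPM of hmgcs1. Conversely, 3 dpci replicate 4 had 147 CPM of hmgcs1 and 54.2 CPM of dhcr7 beside 0.592 CPM of thrsp and the lowest dgat2 of its group (70.8 CPM), but also the highest elovl2 (90.9 CPM), me1 (25.8 CPM) and gck (4.85 CPM). At 7 dpci replicate 1, highest for 12 of 13 sterol enzymes, was among the 2 highest samples for 7 of 10 fatty acid genes. Replicate 3 was among the 2 highest for 7 of 10 as well. The shares of all genes were 48.7% for replicate 1 and 49.9% for replicate 3.

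**Figure D5:**
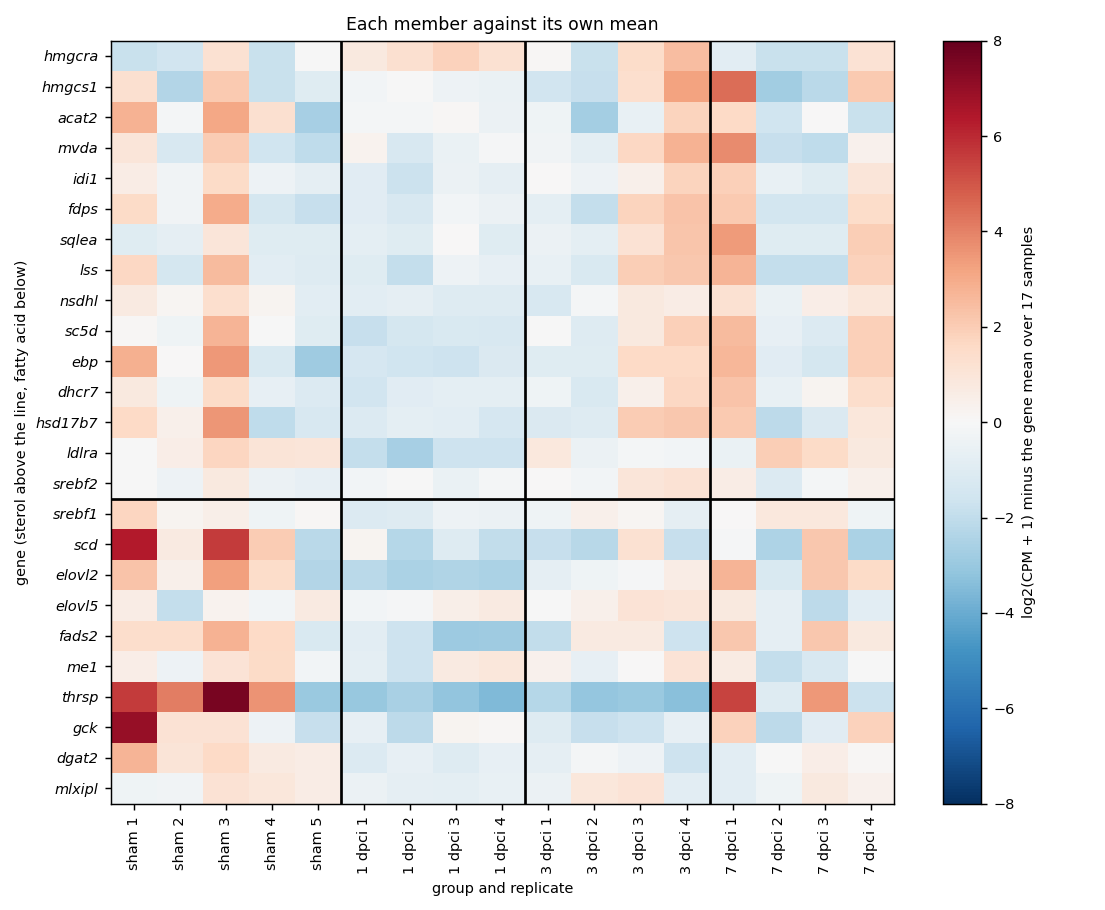
Log2 of CPM plus 1 of each gene minus its own mean over the 17 samples, with samples in columns by group (sham, then 1, 3 and 7 dpci) and genes in rows, sterol genes above the line. Red marks values above the gene's mean and blue values below it. Of 13 sterol enzymes, 11 and 13 are red in sham 1 and 3, 12 and 13 in 3 dpci 3 and 4 and 12 and 12 in 7 dpci 1 and 4, with hmgcra, sqlea and acat2 as the exceptions. Of 10 fatty acid genes, 7 to 10 are red in sham 1 to 4, and 7 each in 7 dpci 1 and 3.

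Marker levels were read in the same samples. Exocrine pancreas markers summed to 9440, 37433, 20764, 33911 and 4796 CPM in sham replicates 1 to 5, with sham replicates 1 and 3 in the middle. Hepatocyte markers summed to 135425 and 203058 CPM in sham replicates 1 and 3 and to 103675 to 171245 CPM in the others. Of 17 fasting and fuel-switch genes, 1 rose and 2 fell at 1 dpci, where 9.43% of all genes rose and 14.5% fell, and none was called at 3 or 7 dpci against sham. Those that fell were pck2, a phosphoenolpyruvate carboxykinase, and pdk4, a pyruvate dehydrogenase kinase (log2 fold changes −2.02 and −1.52, adjusted p = 0.00062 and 0.0280, edgeR). The one that rose was igfbp1a, which encodes a binding protein of insulin-like growth factors (log2 fold change 2.99 ± 0.75, adjusted p = 0.00957). It had 24.3 and 49.6 CPM in sham replicates 1 and 3, against 141, 49.3 and 127 CPM in replicates 2, 4 and 5. At 3 dpci it had 57.8 and 988 CPM in replicates 3 and 4, against 1264 and 406 CPM in replicates 1 and 2. At 7 dpci it had 128 and 1109 CPM in replicates 1 and 4, against 1570 and 1193 CPM in replicates 2 and 3, so its order was not that of the sterol enzymes. The 17 genes summed to 464, 717, 551, 603 and 955 CPM in sham replicates 1 to 5. In replicates 1 to 4 they summed to 1945, 973, 408 and 1432 CPM at 3 dpci and 397, 2253, 1933 and 1825 CPM at 7 dpci. In sham and at 7 dpci the sum was thus lowest in the pair with high sterol enzymes. At 7 dpci, however, replicate 4 (1825 CPM) lay close to replicate 3 (1933 CPM). At 3 dpci the sum was lowest in replicate 3, but replicate 4 lay above replicate 2. The sum includes igfbp1a, which made up most of it in 7 dpci replicates 2, 3 and 4 and 3 dpci replicates 1 and 4. In those samples the sum thus largely repeats that gene. The part of igfbp1a and of this list in the lipid genes' spread was not tested.

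Among 28 further genes of sterol handling, 19 were tested. At 1 dpci 3 rose and 1 fell, where 9.43% of all genes rose and 14.5% fell. The cholesterol exporter abca1b had 162, 249, 59.9 and 63.7 CPM at 1 dpci, against 7.38, 4.55, 2.33, 3.42 and 12.8 CPM in sham samples (log2 fold change 4.44 ± 0.65, adjusted p = 0.000304, edgeR). The groups did not overlap. The lysosomal cholesterol transporter npc1 rose as well (log2 fold change 1.21 ± 0.32, adjusted p = 0.0121), as did lcat, which esterifies plasma cholesterol (1.26 ± 0.32, adjusted p = 0.0103). The gene tmem97, whose product binds sterols, fell (−4.22 ± 1.08, adjusted p = 0.0110).

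The lanosterol demethylase gene cyp51, of the same pathway, had the sample order of the listed enzymes. Its values were 20.1, 4.32, 80.5, 5.93 and 2.23 CPM in sham samples, 1.52, 2.46, 2.93 and 3.39 CPM at 1 dpci, 8.80, 1.91, 48.4 and 58.0 CPM at 3 dpci and 122, 0.821, 4.27 and 48.1 CPM at 7 dpci. Its 2 highest samples were sham 1 and 3, 3 dpci 3 and 4 and 7 dpci 1 and 4. Most of its list did not share these pairs, which held for 4, 4 and 5 of the 19 genes, or 21.1%, 21.1% and 26.3%, against 14.7%, 18.9% and 14.6% of all genes. The cholesterol esterifying gene soat2 had the reverse order, with its lowest values in these pairs in all 3 groups. It had 2.95, 29.8, 5.83, 16.2 and 36.3 CPM in sham replicates 1 to 5. In replicates 1 to 4 it had 25.4, 14.9, 0.659 and 1.54 CPM at 3 dpci and 0.153, 113, 34.8 and 5.75 CPM at 7 dpci. This gene was picked after the values were seen, and its order was not tested.

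Among 45 further genes of lipogenesis, 22 were tested, and at 1 dpci 2 rose and 6 fell, against the same shares of all genes. Those that fell were acss2l, mid1ip1l, hacd2, tecrb, agpat2 and lpin2, of which hacd2 and tecrb act in the fatty acid elongation cycle (log2 fold changes −1.99 ± 0.33 and −1.77 ± 0.34, adjusted p = 0.000658 and 0.00191, edgeR). The triglyceride gene dgat1b rose (2.58 ± 0.57, adjusted p = 0.00437), in the opposite direction to dgat2, and so did mid1ip1b (2.39 ± 0.82, adjusted p = 0.0442). At 3 and 7 dpci against sham none of these 22 was called. At an unadjusted p of 0.05, 5 passed at 3 dpci, where 5.71% of all genes were higher and 6.13% lower. At 7 dpci 0 passed, where 4.77% of all genes were higher and 4.32% lower. An entry named aclya, ATP citrate lyase, was chosen after its values were seen. It had 24.1, 34.8, 31.5 and 33.9 CPM at 1 dpci, against 149.8, 27.5, 438, 25.3 and 17.8 CPM in sham samples (log2 difference −2.08 ± 0.76, adjusted p = 0.0564). Some genes of both lists have a second zebrafish copy, as hmgcra and scd do, and how reads shared between copies were counted is not given in the sources used here.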

How the data were processed

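Bulk liver RNA of 17 zebrafish samples was measured by RNA-seq. Per the labels, libraries were made with a stranded total RNA kit, although the molecule is labelled polyA RNA. The submitters' processing notes name cutadapt 1.16, HISAT2 2.1.0 and featureCounts 1.6.0. The genome build differs between the sources (danRer10 in the notes, a later Ensembl build in the methods), and the use of strand and of multi-mapping reads is not given in the sources used here. The deposited table holds raw counts of 8513 entries, and the authors also deposited CPM, which equalled the count over the column total within 0.0006 and were not used further.

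Counts were tested with edgeR 4.0.16 in R 4.3.3 (filterByExpr, TMM, quasi-likelihood fit of group means over 17 samples), with Benjamini-Hochberg adjustment over 8412 entries and a threshold of 0.05. The tests were also run on simulated data with independent samples, and no result here rests on that run. The members and lists were chosen with earlier results of these data known. The genes with values by sample were chosen by rule. They were hmgcra, srebf1 and srebf2, and the 5 members of each list with the smallest p in each comparison against sham. The 5 with the largest sham SD were taken too, and other genes were added for description. For several of these genes the values of some groups were given as a range or not at all. The alternatives were column totals, DESeq2 1.42.0 and its size factors, no filter, no mitochondrial entries and the compared groups alone. Others were the replicate number as a block, a vitellogenin covariate, 1 dpci samples summed in pairs, each sample left out, and the methods' thresholds. These thresholds were a log2 change of 1.5 and a P of 0.05, taken here as unadjusted because the methods name no adjustment. Genome sequence was not used here.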

Additional observations from a re-analysis of the deposited data

Results flagged for a closer look

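In 100 groups of 4 or 5 samples, 1 per gene and group, the gap of the highest or lowest sample to the next was set against the group's range. In 11 groups it was a larger part of the range than Dixon's 95% limit allows. That limit assumes a normal spread, whereas these CPM were not logged, and the groups share the same 17 samples. A rate of 1 in 20 is therefore not assured here, and the count is a description. In sham replicate 3 these were sqlea (2.915 CPM, others 0 to 0.227), sc5d (246.6 CPM, others 18.7 to 40.8), hsd17b7 (57.7 CPM, others 0.228 to 13.8) and thrsp (3048 CPM, others 1.01 to 752). In sham replicate 1 they were srebf1 (97.9 CPM, others 22.8 to 40.2) and gck (1153 CPM, others 1.62 to 19.8). At 1 dpci it was sqlea in replicate 3 (1.085 CPM, others 0 to 0.152). At 3 dpci they were ldlra in replicate 1 (38.6 CPM, others 15.0 to 18.4) and scd in replicate 3 (16.1 CPM, others 0.589 to 1.06). At 7 dpci they were mvda in replicate 1 (80.1 CPM, others 0.427 to 6.32) and hmgcra in replicate 4 (6.88 CPM, others 0 to 0.915). All 11 were the highest sample of their group.

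The difference between time points passed the test of the difference itself for 8 results. At 3 dpci against 1 dpci this was ldlra (log2 difference 2.23). At 7 dpci against 1 dpci these were ldlra (3.37), nsdhl (1.93), sc5d (2.93), dhcr7 (2.31), elovl2 (4.38), fads2 (3.34) and thrsp (7.91), all higher at 7 dpci.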

How the results depend on the processing

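With 4 or 5 samples a group, and levels below 10 CPM for several sterol genes, the counts of genes called moved with the settings, and the cause was not tested. At 1 dpci against sham, 3 sterol genes were called, against 1 with column totals, 5 with DESeq2, 1 with the vitellogenin covariate, 1 with the 1 dpci samples summed in pairs, 0 with sham replicate 5 as the only sham, 5 under the methods' thresholds, and 1 to 4 with 1 sample left out. The whole table moved too: 14.5% of all genes fell, against 5.62% with column totals, 17.4% with DESeq2, 10.2% with the covariate, 3.92% with summed pairs, 0.917% with sham replicate 5 alone and 8.62% to 15.1% with 1 sample left out. The 7 fatty acid genes became 4 with the vitellogenin covariate, 1 with summed pairs, 0 with sham replicate 5 alone and 4 to 8 with 1 sample left out. At 3 dpci against sham, where no gene of either list was called, DESeq2 gave 3 fatty acid genes (1.21% of all genes fell), the methods' thresholds 6 (1.8%), and leaving out 1 sample 0 to 2 (0% to 0.404%). At 7 dpci against sham, the methods' thresholds gave 1 sterol gene that was higher (1.08% of all genes) and 3 fatty acid genes that were lower (0.88%) instead of 0. At 3 dpci against 1 dpci, 1 sterol gene became 2 with DESeq2, 3 with the compared groups alone, 0 with summed pairs and 4 under the methods' thresholds, and 0 fatty acid genes became 1 with DESeq2, 1 with the compared groups alone, 2 under the methods' thresholds and 0 to 1 with 1 sample left out. At 7 dpci against 1 dpci, 4 sterol genes became 1 with column totals, 1 with the vitellogenin covariate, 1 with summed pairs, 8 under the methods' thresholds and 1 to 5 with 1 sample left out, and 3 fatty acid genes became 0 with summed pairs and 3 to 4 with 1 sample left out. The whole table moved here as well. At 3 dpci against 1 dpci 644 of 8412 genes rose, against 1004 with DESeq2, 744 of 8074 with the compared groups alone and 85 of 8485 with summed pairs. At 7 dpci against 1 dpci 1226 of 8412 rose, against 540 with column totals, 1048 with the covariate, 309 of 8485 with summed pairs and 728 to 1440 with 1 sample left out.

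Deviations of samples with the same replicate number correlated at −0.257 to 0.419, with 5 of 24 pairs over 0.1. Correlations between differently numbered samples were not computed, so these values do not decide whether the replicate number pairs the samples. Number 5 occurs only among the sham samples. A replicate block therefore gives sham replicate 5 a term of its own and in effect leaves it out of the group differences. With this block, 2 fatty acid genes were called at 3 dpci against sham (0.452% of all genes). It gave 1 at 3 dpci against 1 dpci (8.54%), and 2 sterol genes at 7 dpci against 1 dpci (20.2%). At 1 dpci against sham the call of gck was lost (adjusted p = 0.0537, edgeR). Without sham replicate 5 and with no block, thrsp and dgat2 were called at 3 dpci against sham, and the part of the pairing was not tested.

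Of 1072 recomputed log2 fold changes of 40 gene results, 12 changed sign. With sham replicate 5 as the only sham sample, a setting added after the data were seen in which that lone sample is assumed to vary like the other groups, ebp was 6.50, hsd17b7 0.58, scd 2.19 and gck 1.91 at 1 dpci, scd 2.91, elovl2 2.36, fads2 1.18, thrsp 0.15 and gck 0.87 at 3 dpci, and scd 3.87 and gck 3.40 at 7 dpci. Sham replicate 5 held 0 ebp reads, so its value depends on the prior count. At 7 dpci gck ran from −4.25 to 0.57 with 1 sample left out, the highest without sham replicate 1. The median sham SD was 1.80 for the sterol genes with column totals and 1.46 to 2.07 with 1 sham sample left out, and for the fatty acid genes 1.25 and 1.02 to 1.47. Leaving out 7 dpci libraries 30 and 31 was also added after the data were seen, because their headings differ in form and number 31 also names a 3 dpci sample. Then 3 sterol and 3 fatty acid genes were called at 7 dpci against 1 dpci (12.4% of all genes), without sc5d (adjusted p = 0.0544), and 0 against sham.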
